A study of Mus musculus with 6 samples.

Results

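Nucleotide synthesis supplies the building blocks of RNA and DNA. The set described here holds the enzymes that build purines and pyrimidines, recover them by salvage, and turn them into deoxynucleotides. Its members are the rows of the deposited expression table whose gene symbol is one of 33 names, and 31 of the 21965 genes in the table met that rule. The other 2 genes, Ctps and Hprt, stand in the table as Ctps1 and Hprt1 under their Ensembl identifiers; their values are given beside the rest, and they are left out of every count of members unless stated. RNA was sequenced from 6 mouse libraries labelled as lung tissue, 3 of the group Aa-cko and 3 of the group Aa-flox. The labels do not expand these names and give no strain, age, sex, treatment or cell sort, so what the groups share or what drives a deletion is not known from them. The series title names Lkb1, and its gene Stk11 read 62.7, 61.7 and 53.7 FPKM (fragments scaled to gene length and library depth) in Aa-cko against 64.1, 55.8 and 51.8 FPKM in Aa-flox, so the groups overlapped and the levels are given by label only. The labels do not state whether the 3 libraries per group are separate animals; if they are not, each p-value reflects technical spread alone.

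De novo purine synthesis builds the purine ring on phosphoribosyl pyrophosphate (PRPP) and ends at IMP, from which separate branches lead to AMP and GMP. Pyrimidine synthesis makes the ring first, joins it to PRPP and ends at UMP, from which UTP and CTP are made. Ribonucleotide reductase converts ribonucleotides to deoxynucleotides, and lymphocytes that divide raise this whole supply, the reductase and thymidylate enzymes chiefly around S phase.

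The lung epithelium markers were uneven in level and moved both ways between the groups. In the limma test described below, 1 of the 7 was called lower and 1 higher. Epcam read 3.565 to 4.82 FPKM in Aa-cko and 9.23 to 11.4 FPKM in Aa-flox. Sftpb read 3.04 to 3.65 FPKM in Aa-cko and 1.37 to 2.465 FPKM in Aa-flox. Scgb1a1, a club cell gene, read 126 to 167 FPKM in Aa-cko and 111 to 138 FPKM in Aa-flox. Sftpc, the surfactant protein C gene of alveolar epithelium, read 2.47 to 4.49 FPKM in Aa-cko and 2.23 to 4.59 FPKM in Aa-flox, while the T cell gene Cd3e read 43.2 to 57.3 FPKM in Aa-cko and 73.6 to 97.2 FPKM in Aa-flox. Depth, estimated from the spacing of low values, was 14.2 to 17.5 M fragments, at which 1 FPKM of a 2 kb gene rests on 28.4 to 34.9 fragments. The libraries also differed by gene length. Over 10834 genes, a library's deviation from its group mean correlated with exon length at Spearman -0.54 in Aa-cko 2, 0.51 in Aa-cko 3, -0.31 in Aa-flox 1 and 0.42 in Aa-flox 3, so Aa-cko 2 read short genes high and Aa-cko 3 read long genes high. With GC content the coefficient was 0.43 in Aa-flox 1 and -0.35 in Aa-flox 3.

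In Aa-cko 4 of 7 deoxynucleotide enzymes and 4 of 9 purine enzymes fell, kinases and salvage enzymes moved both ways, and the dNTP hydrolase Samhd1 rose. All 31 members passed the low-value filter, which asked for 1 FPKM or more in no fewer than 3 libraries. With limma on log2(FPKM + 1), 12 members fell and 3 rose at an adjusted p under 0.05, while 16 did not pass; of all genes tested, 42.4% were called in one direction or the other. The 12 are 38.7% of the members, where 23.2% of the 10849 genes tested were called lower, and the 3 are 9.68%, where 19.2% of all genes were called higher. The groups did not overlap, with every Aa-cko library lower, for 13 members, and with every Aa-cko library higher for 5; the shares among all tested genes were 29.6% and 23.8%. The median log2 fold change, Aa-cko minus Aa-flox, was -0.18 over the members and -0.05 over all tested genes. Upper quartile scaling turned the split over all genes from 45.3% of calls higher (2087 against 2515 lower) to 57.3% (2551 against 1898), and the members' counts with it to 5 higher and 10 lower.

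**Figure D1:**
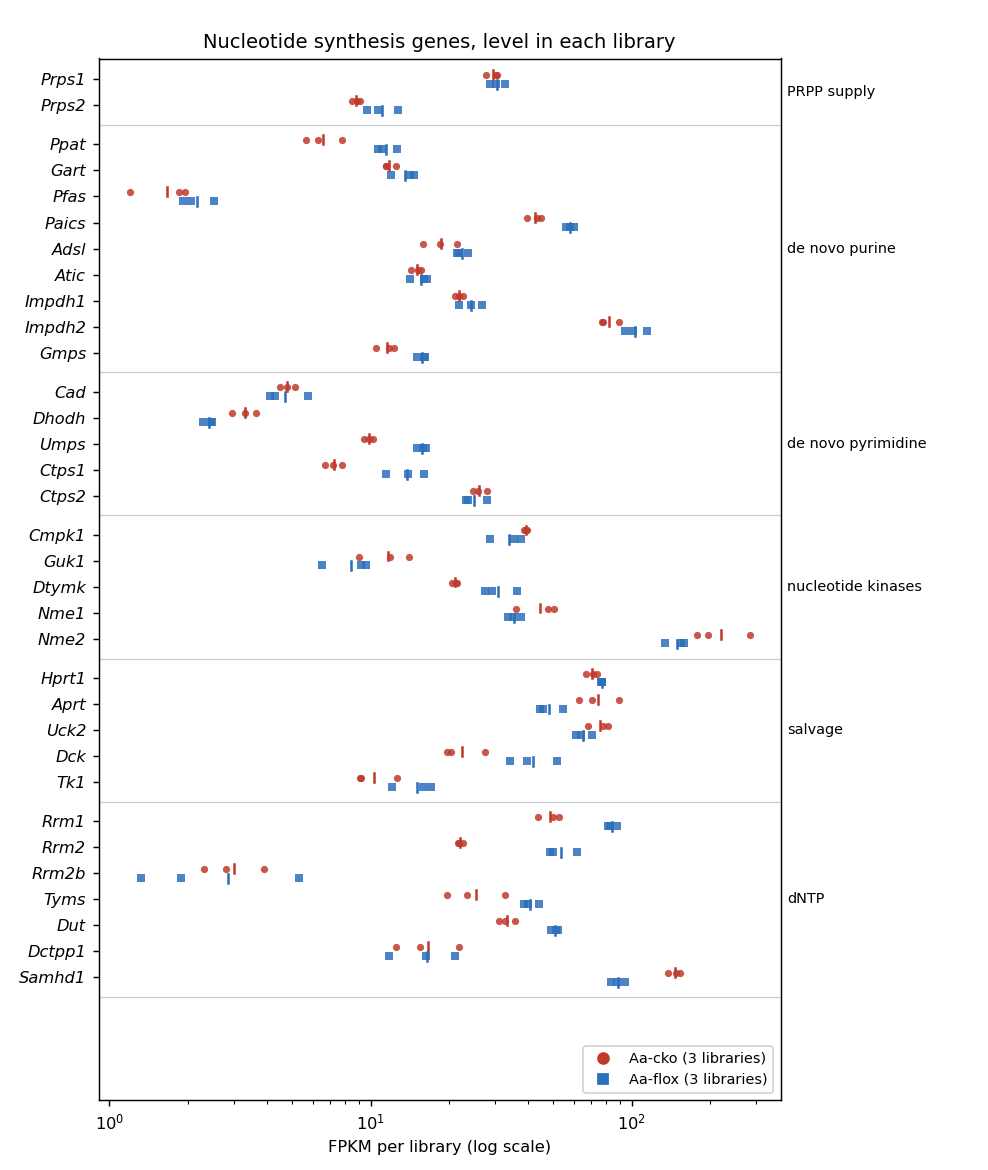
Level of each member, with Ctps1 and Hprt1, in every library, in FPKM on a log axis; circles are Aa-cko and squares Aa-flox (3 libraries each), and short vertical lines are group means. Rrm2 shows the widest separation, at 21.5 to 22.5 FPKM in Aa-cko and 48.6 to 61.6 FPKM in Aa-flox, and Samhd1 the reverse order, at 137 to 153 FPKM in Aa-cko and 83.6 to 93.9 FPKM in Aa-flox.

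Of the ribonucleotide reductase genes, Rrm2 and Rrm1 fell and Rrm2b did not pass. Rrm2, the small subunit made in S phase, read 21.5, 21.8 and 22.5 FPKM in Aa-cko against 48.6, 50.1 and 61.6 FPKM in Aa-flox. The groups were far apart, and the Aa-cko libraries lay within about 1 FPKM of each other. The mean fell by 58.9%, with a log2 fold change of -1.24 ± 0.11 (SE) and adjusted p = 6.85e-05. Rrm2 lies on chromosome 12 from 24708241 to 24714146 (plus strand, mm10). Rrm1, the large subunit that binds the substrate, lies on chromosome 7 from 102441695 to 102469771 and read 52.7, 43.8 and 49.9 FPKM in Aa-cko against 87.7, 82.5 and 81.0 FPKM in Aa-flox. Again no library of one group reached the other, and the log2 fold change was -0.77 ± 0.10 (adjusted p = 0.000377).

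Rrm2b, the alternative small subunit that the tumour suppressor p53 induces and that serves cells outside S phase, did not pass. It read 2.79, 2.31 and 3.89 FPKM in Aa-cko against 1.32, 1.88 and 5.30 FPKM in Aa-flox. Aa-flox 3 was above all other libraries and the other Aa-flox libraries were below all of Aa-cko, so the groups overlapped through 1 library. Without Aa-flox 3 the log2 fold change was 0.61 with adjusted p = 0.0401, and without Aa-flox 1 it was -0.11 with adjusted p = 0.804. The gene Trp53 itself, which encodes p53, was 43.5 ± 1.53 FPKM in Aa-cko and 111 ± 7.27 FPKM in Aa-flox (SD, n = 3 each). Its log2 fold change was -1.33 (limma, adjusted p = 1.85e-05), and its part in the level of Rrm2b was not tested.

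The thymidylate route fell with the reductase. Tyms, thymidylate synthase, read 23.4, 32.6 and 19.7 FPKM in Aa-cko against 44.0, 40.0 and 38.7 FPKM in Aa-flox, a log2 fold change of -0.70 ± 0.16 (adjusted p = 0.00696). The Aa-cko libraries were all lower but spread widely. Dut, the dUTPase that makes dUMP and keeps uracil out of DNA, read 31.0, 35.9 and 32.6 FPKM in Aa-cko against 52.0, 49.2 and 51.3 FPKM in Aa-flox, a log2 fold change of -0.60 ± 0.10 (adjusted p = 0.00109). Dtymk, thymidylate kinase, which phosphorylates the product of Tyms, read 20.5, 21.2 and 21.5 FPKM in Aa-cko against 36.2, 27.3 and 29.1 FPKM in Aa-flox (log2 -0.52 ± 0.12, adjusted p = 0.00682). In each of these the groups did not overlap. Dctpp1, a pyrophosphatase that clears dCTP and modified deoxycytidine nucleotides, overlapped fully, at 15.5, 21.7 and 12.5 FPKM in Aa-cko against 21.1, 16.3 and 11.7 FPKM in Aa-flox (log2 0.02, 95% interval -0.482 to 0.521, adjusted p = 0.952).

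Samhd1, a triphosphohydrolase that breaks dNTPs down, rose. It lies on chromosome 2 from 157097533 to 157135265 (minus strand) and read 148, 137 and 153 FPKM in Aa-cko against 83.6, 93.9 and 88.1 FPKM in Aa-flox. The groups did not overlap, and the log2 fold change was 0.72 ± 0.10 (adjusted p = 0.000413). SAMHD1 is known for its abundance in myeloid cells. In the same libraries all 12 genes of a macrophage and monocyte list were called higher, where 19.2% of all tested genes were. Their summed level was 7697 to 10324 FPKM in Aa-cko and 3065 to 3599 FPKM in Aa-flox, with none at 0. This rise was not particular to these cells. Called higher were also 10 of 10 B cell, 4 of 4 erythroid, 4 of 5 plasma cell, 5 of 7 neutrophil and 4 of 7 dendritic cell genes tested. Of 12 T cell markers 10 were lower. The part of any of these cells in the result for Samhd1 was not tested. In bulk RNA, fewer cells of a type and less RNA per cell cannot be told apart.

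Most markers of dividing cells and of T cells fell, as did 4 of the 7 deoxynucleotide enzymes, while Samhd1 rose and Rrm2b and Dctpp1 did not pass. All 34 genes of a replication and mitosis list had log2 fold changes below 0, and 32 of them fell, with Gins2 and Pola1 not past the threshold. Of all tested genes 54.1% were below 0 and 23.2% fell. The summed level of the 34 was 830 to 881 FPKM in Aa-cko and 1363 to 1509 FPKM in Aa-flox. Mki67, the proliferation antigen, averaged 28.5 ± 5.41 FPKM in Aa-cko and 61.1 ± 9.20 FPKM in Aa-flox, and Pcna, the replication clamp, averaged 249 ± 18.2 FPKM in Aa-cko and 362 ± 14.7 FPKM in Aa-flox (SD, n = 3 each). The smallest p-values in these lists were those of Cdk1 (log2 -1.50), Ccnb1 (-1.26) and Bub1 (-1.03) for mitosis and of Ccne2 (-1.39), Mcm7 (-0.95) and Mcm3 (-0.94) for replication. Of 12 T cell markers 10 were lower, with summed levels of 785 to 872 FPKM in Aa-cko and 1613 to 1990 FPKM in Aa-flox. Dntt, a DNA polymerase of immature lymphocytes, averaged 60.3 ± 2.75 FPKM in Aa-cko and 92.7 ± 1.21 FPKM in Aa-flox, and 3 of 5 tested genes of that list were lower, while all 10 B cell markers were higher, at sums of 901 to 965 FPKM in Aa-cko and 590 to 656 FPKM in Aa-flox. None of the markers in these lists was at 0 in every library, and their part in the results for nucleotide enzymes was not tested.

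All 9 de novo purine enzymes had log2 fold changes below 0, as did 54.1% of all tested genes. Atic, the nearest to 0, read above 0 under upper quartile scaling (0.06), quantile normalization (0.0639) and with the length trend removed (0.11). Of the 9 enzymes 4 fell (44.4%), where 23.2% of all tested genes did. Those were Ppat, Paics, Impdh2 and Gmps. Ppat, the amidophosphoribosyltransferase that commits PRPP to purines, read 6.31, 5.67 and 7.78 FPKM in Aa-cko against 11.1, 10.7 and 12.6 FPKM in Aa-flox, with a log2 fold change of -0.72 ± 0.14 (adjusted p = 0.00276). Paics, a bifunctional enzyme in the middle of the pathway, read 39.8, 44.9 and 43.5 FPKM in Aa-cko against 58.0, 55.8 and 59.8 FPKM in Aa-flox (log2 -0.43 ± 0.09, adjusted p = 0.00528). The groups did not overlap for either gene. Gmps, which makes GMP from XMP, read 11.8, 10.5 and 12.3 FPKM in Aa-cko against 15.1, 16.045 and 16.1 FPKM in Aa-flox (log2 -0.42 ± 0.11, adjusted p = 0.0127), and its call ended once a trend with GC content was removed (log2 -0.23, adjusted p = 0.0772).

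Impdh2, the IMP dehydrogenase of proliferating cells and the most abundant purine enzyme here, read 77.2, 89.5 and 77.7 FPKM in Aa-cko against 114, 93.9 and 101 FPKM in Aa-flox. Aa-cko 2 and Aa-flox 2 came close, and the log2 fold change was -0.33 ± 0.11 (adjusted p = 0.0327). With every gene tested or with no variance trend the adjusted p was 0.0605 and 0.0523, with upper quartile scaling it was 0.148, and the call was also lost without Aa-cko 1, Aa-cko 3, Aa-flox 1 or Aa-flox 3, with adjusted p = 0.125, 0.0621, 0.113 and 0.0674. Impdh1, the isozyme of more even expression, read 21.1, 22.6 and 21.9 FPKM in Aa-cko against 26.8, 21.8 and 24.2 FPKM in Aa-flox and did not pass (log2 -0.14, 95% interval -0.385 to 0.102).

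The other purine enzymes did not pass. Adsl, adenylosuccinate lyase, which acts both before IMP and on the AMP branch, read 18.5, 21.4 and 15.8 FPKM in Aa-cko against 21.4, 21.8 and 23.7 FPKM in Aa-flox. Aa-cko 2 lay just under Aa-flox 1, and the log2 fold change was -0.26 (adjusted p = 0.119). It passed without Aa-cko 2 (-0.36, adjusted p = 0.0327) and with libraries scaled to equal sums (-0.35, adjusted p = 0.0437). Gart, a trifunctional enzyme of the early steps, read 11.5 to 12.5 FPKM in Aa-cko and 11.9 to 14.6 FPKM in Aa-flox (log2 -0.18). Atic, which closes the ring to IMP, read 14.3 to 15.6 FPKM in Aa-cko and 14.1 to 16.5 FPKM in Aa-flox (log2 -0.04). Pfas, the amidotransferase between Gart's steps, was the lowest of the purine enzymes, at 1.20 to 1.95 FPKM in Aa-cko and 1.91 to 2.52 FPKM in Aa-flox (log2 -0.25, adjusted p = 0.215). For PRPP synthetases, Prps1 read 27.8 to 30.5 FPKM in Aa-cko and 28.7 to 32.6 FPKM in Aa-flox (log2 -0.04). Prps2 read 8.84, 8.50 and 9.12 FPKM in Aa-cko against 9.70, 10.6 and 12.8 FPKM in Aa-flox; the groups did not overlap, but the difference did not pass (log2 -0.29, adjusted p = 0.0981).

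Promoter sequences are shown for the 5 members that fell and hold one of 2 searched motifs, and for Atic, which holds both motifs and did not pass. RefSeq (GRCm38.p6, the assembly of mm10) gave windows from 250 bases before to 50 after the start for 30 of the 33 genes, all but Dhodh, Pfas and Rrm2b. Capitals mark the E-box CACGTG, the site of MYC and related factors, or the letters TTTGGCGC, TTTCCCGC or TTCGCGC of the E2F motif, searched on both strands. Ppat and Paics are transcribed away from each other on chromosome 5 and their annotated genes overlap by 272 bases of exon, so without strand information reads from that stretch cannot be assigned to one of them.
Paics (chr5:76951052-76951351, plus strand): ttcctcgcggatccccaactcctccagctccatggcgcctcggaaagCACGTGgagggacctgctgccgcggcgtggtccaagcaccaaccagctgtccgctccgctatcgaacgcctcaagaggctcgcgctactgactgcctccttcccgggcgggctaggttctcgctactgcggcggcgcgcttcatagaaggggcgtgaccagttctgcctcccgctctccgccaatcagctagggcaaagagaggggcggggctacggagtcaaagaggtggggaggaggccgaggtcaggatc
Ppat (chr5:76951529-76951828, minus strand): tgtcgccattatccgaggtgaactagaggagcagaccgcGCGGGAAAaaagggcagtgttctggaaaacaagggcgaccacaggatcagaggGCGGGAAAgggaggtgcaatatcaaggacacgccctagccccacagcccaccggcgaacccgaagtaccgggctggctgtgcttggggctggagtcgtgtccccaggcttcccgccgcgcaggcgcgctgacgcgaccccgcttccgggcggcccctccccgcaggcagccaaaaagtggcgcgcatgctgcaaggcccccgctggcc
Impdh2 (chr9:108560186-108560485, plus strand): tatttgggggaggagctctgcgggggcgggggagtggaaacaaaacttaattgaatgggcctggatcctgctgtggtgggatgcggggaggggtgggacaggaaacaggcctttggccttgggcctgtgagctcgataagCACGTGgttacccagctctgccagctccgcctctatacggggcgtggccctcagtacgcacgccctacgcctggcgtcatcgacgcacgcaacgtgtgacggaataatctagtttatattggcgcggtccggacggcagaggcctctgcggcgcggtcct
Dtymk (chr1:93801885-93802184, minus strand): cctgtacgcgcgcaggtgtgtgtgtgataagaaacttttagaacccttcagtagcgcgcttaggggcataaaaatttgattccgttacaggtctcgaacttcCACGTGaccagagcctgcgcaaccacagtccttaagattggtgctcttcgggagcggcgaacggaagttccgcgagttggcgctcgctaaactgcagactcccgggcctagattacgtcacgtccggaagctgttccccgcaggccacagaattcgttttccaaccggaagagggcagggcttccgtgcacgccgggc
Tyms (chr5:30073576-30073875, minus strand): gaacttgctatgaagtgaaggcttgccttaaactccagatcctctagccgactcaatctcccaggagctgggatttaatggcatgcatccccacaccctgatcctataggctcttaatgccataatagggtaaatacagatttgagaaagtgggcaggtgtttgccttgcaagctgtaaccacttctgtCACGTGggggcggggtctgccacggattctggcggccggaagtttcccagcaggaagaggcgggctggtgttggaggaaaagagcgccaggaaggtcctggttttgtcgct
Atic (chr1:71556906-71557205, plus strand): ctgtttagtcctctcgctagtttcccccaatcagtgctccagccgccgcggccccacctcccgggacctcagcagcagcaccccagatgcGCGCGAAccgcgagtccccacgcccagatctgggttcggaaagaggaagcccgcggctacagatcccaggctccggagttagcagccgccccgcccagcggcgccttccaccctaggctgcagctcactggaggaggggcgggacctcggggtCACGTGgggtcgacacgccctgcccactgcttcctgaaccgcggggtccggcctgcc
With the start counted as 0, the E-box begins at -203 in Paics, -110 in Impdh2, -148 in Dtymk, -61 in Tyms and -7 in Atic. Ppat holds 2 matches of the E2F letters and no E-box, and its neighbour Paics the reverse.

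An E-box was present in 6 of the 30 genes with a window (20%), against 12.1% of the 8538 tested genes matched by name and 8.09% of all 27025 genes with a window. The genes were Paics, Impdh2, Dtymk, Tyms, Atic and Nme1, of which the first 4 fell and the others did not pass. The E2F letters were present in 4 genes (13.3%), namely Ppat, Atic, Prps2 and Ctps, against 7.14% of tested genes and 3.51% of all genes. Ppat and Ctps (as Ctps1) fell, while Atic and Prps2 did not pass. A gene with several windows counted if any held a match. Ctps held its match only in the window chr4:120569410-120569709 and not in that at the start of the annotated gene. Rrm1, Rrm2, Dut, Umps, Dck, Gmps and Tk1, which also fell, held none of these letters in the window. For Dut that window, chr2:125247265-125247564, lies after the start of the annotated gene at 125247190. The bases ahead of that annotated start were therefore not searched. In the 100 bases around the start the counts were 2 (6.67%, against 5.41% of tested genes) and 1 (3.33%, against 2.66%), which is near the share of tested genes. Myc, which encodes the E-box factor, averaged 38.8 ± 3.12 FPKM in Aa-cko and 199 ± 33.8 FPKM in Aa-flox, its antagonist Mxd1 averaged 171 ± 16.1 FPKM in Aa-cko and 95.9 ± 2.68 FPKM in Aa-flox, and E2f1 averaged 5.85 ± 0.538 FPKM in Aa-cko and 7.96 ± 0.473 FPKM in Aa-flox (SD, n = 3 each). Myc (log2 -2.32) and E2f1 (-0.39, adjusted p = 0.0294) fell and Mxd1 (0.83) rose; the part of these factors in the members' levels was not tested.

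**Figure D2:**
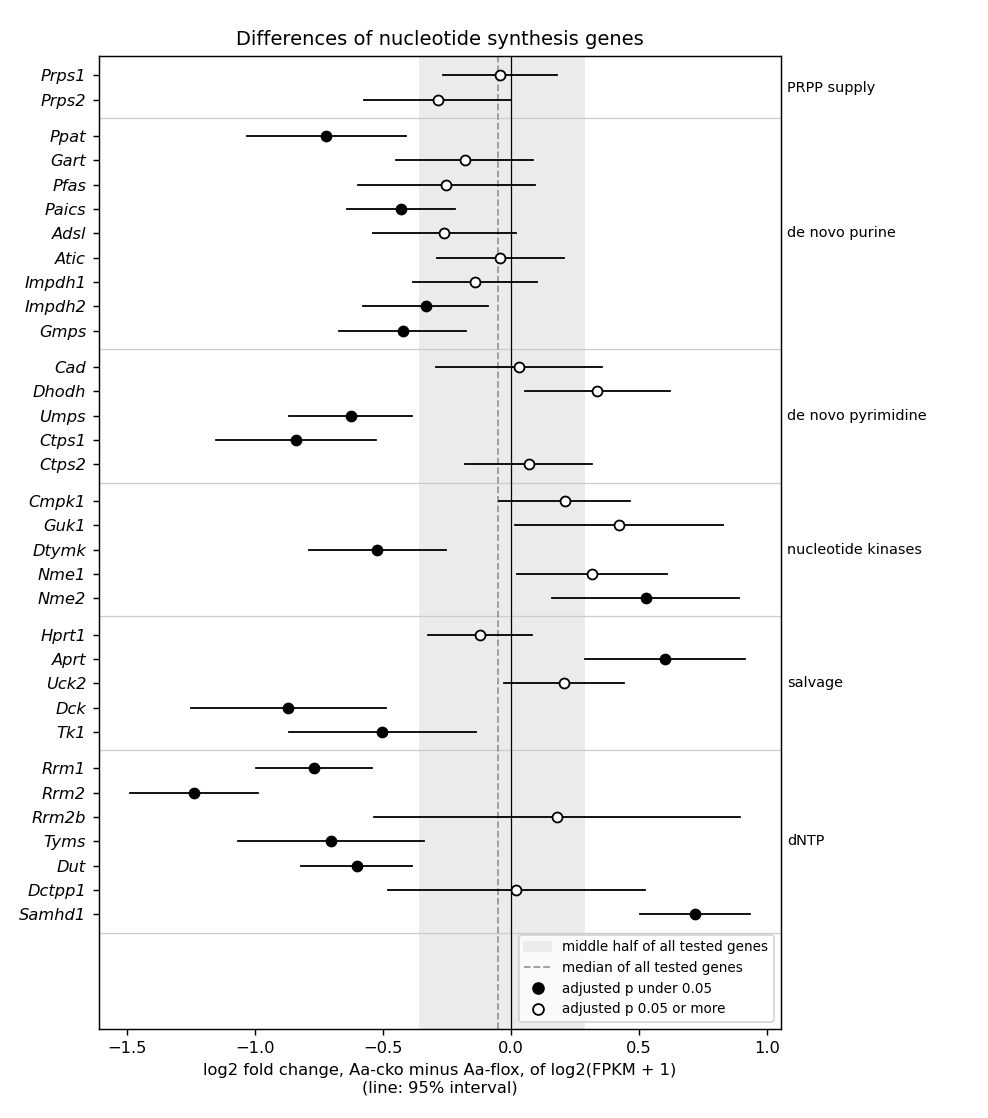
Log2 fold change of each member, Aa-cko minus Aa-flox, on the log2(FPKM + 1) scale with its 95% interval; filled points are under an adjusted p of 0.05, the grey band spans the lower to the upper quartile of all 10849 tested genes and the dashed line their median of -0.05. Filled points lie between -1.24 (Rrm2) and 0.72 (Samhd1), and all 9 purine enzymes lie left of 0.

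Of the pyrimidine enzymes ahead of CTP, Umps fell while Cad and Dhodh did not pass. Umps, the bifunctional enzyme that ends the pathway at UMP, fell to 9.44, 10.2 and 9.88 FPKM in Aa-cko against 15.8, 15.1 and 16.3 FPKM in Aa-flox. The spread within each group was small beside the difference, and the log2 fold change was -0.63 ± 0.11 (adjusted p = 0.00154). Cad, the trifunctional enzyme that opens the pathway, read 4.51, 4.79 and 5.13 FPKM in Aa-cko against 5.77, 4.11 and 4.29 FPKM in Aa-flox and did not pass (log2 0.03, 95% interval -0.292 to 0.355). Dhodh, the dehydrogenase on the inner mitochondrial membrane, read 3.64, 3.31 and 2.96 FPKM in Aa-cko against 2.45, 2.29 and 2.47 FPKM in Aa-flox. Every Aa-cko library was higher, but the difference did not pass (log2 0.34 ± 0.13, adjusted p = 0.0561); it passed under upper quartile scaling (adjusted p = 0.0251), without a variance trend (0.0348), with a trend with exon length removed (0.0156) and without Aa-cko 3 (0.0494).

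CTP synthases make CTP from UTP, and the inducible form fell while its relative did not pass. Ctps1, the form that activated lymphocytes need to proliferate, read 6.69, 7.18 and 7.81 FPKM in Aa-cko against 14.0, 11.4 and 16.1 FPKM in Aa-flox (log2 -0.84 ± 0.14, adjusted p = 0.0014). Ctps2 read 25.8, 27.8 and 24.7 FPKM in Aa-cko against 27.9, 23.1 and 23.7 FPKM in Aa-flox (log2 0.07, adjusted p = 0.642). Within a library, Ctps2 stood at 3.86, 3.88 and 3.16 times Ctps1 in Aa-cko against 2.0, 2.02 and 1.47 times in Aa-flox, a ratio that overall scaling of a library leaves as it is. The log2 ratio was higher by 1.0 in Aa-cko (exact permutation test, two-sided, p = 0.1, the smallest that 3 against 3 allows; adjusted over 5 pairs 0.167).

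Other pairs of related enzymes were compared in the same way. Rrm2b stood at 0.130, 0.106 and 0.173 times Rrm2 in Aa-cko against 0.0272, 0.0376 and 0.0861 times in Aa-flox, so the ratios did not overlap (log2 difference 1.58, exact p = 0.1, adjusted 0.167). Impdh2 stood at 3.66, 3.96 and 3.55 times Impdh1 in Aa-cko against 4.27, 4.31 and 4.17 times in Aa-flox, again without overlap (log2 difference -0.19, exact p = 0.1, adjusted 0.167). The ratios of Prps2 to Prps1 (log2 difference -0.27, exact p = 0.3, adjusted 0.375) and of Nme2 to Nme1 (0.21, exact p = 0.4, adjusted 0.4) overlapped between the groups.

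**Figure D3:**
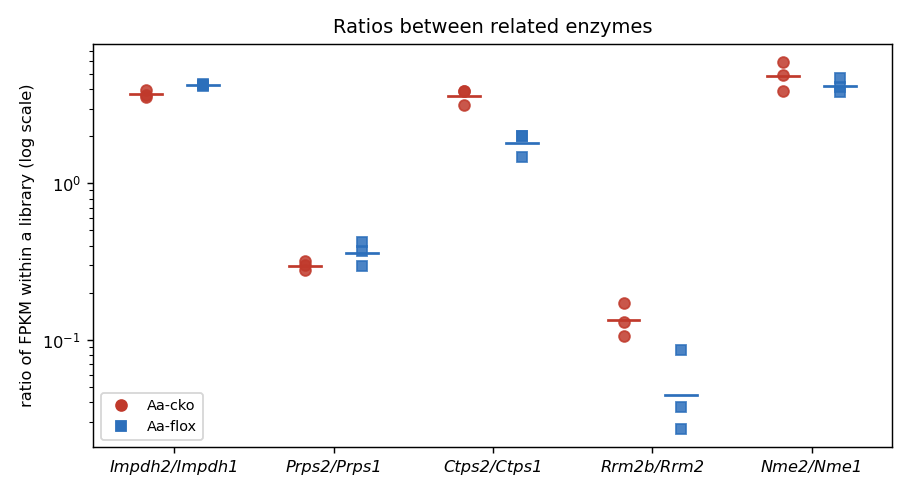
Ratio of the FPKM of 2 related enzymes within each library, on a log axis; circles are Aa-cko, squares Aa-flox (3 libraries each) and lines the means of the log ratios. The groups do not overlap for Ctps2/Ctps1, Rrm2b/Rrm2 and Impdh2/Impdh1.

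Among the kinases that turn nucleotides into di- and triphosphates, Dtymk fell, Nme2 rose and the others did not pass. Nme1 and Nme2 are nucleoside diphosphate kinases that charge the last phosphate. Nme2, the most abundant member, read 196, 282 and 177 FPKM in Aa-cko against 159, 155 and 134 FPKM in Aa-flox, a log2 fold change of 0.52 ± 0.16 (adjusted p = 0.0268). The call ended with every gene tested (adjusted p = 0.0721) and without Aa-cko 1, Aa-flox 1, Aa-flox 2 or Aa-flox 3, with adjusted p = 0.0503, 0.0503, 0.0586 and 0.0845 in that order. Nme1 read 50.3, 47.7 and 36.02 FPKM in Aa-cko against 33.7, 37.6 and 35.0 FPKM in Aa-flox; Aa-cko 3 lay within Aa-flox and the difference did not pass (log2 0.31, adjusted p = 0.0787), but passed without Aa-cko 3 (adjusted p = 0.00613), with upper quartile scaling (0.039) and with quantile normalization (0.0374). Both genes are close in sequence and share exons with a read-through gene, Gm20390, so the split of reads between them is uncertain.

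Guk1, guanylate kinase, read 11.8, 14.1 and 9.06 FPKM in Aa-cko against 9.59, 9.20 and 6.50 FPKM in Aa-flox, and the groups overlapped through Aa-cko 3 (log2 0.42, adjusted p = 0.0882; 0.58 and 0.0181 without Aa-cko 3). Cmpk1, the UMP and CMP kinase, read 39.7, 39.3 and 38.6 FPKM in Aa-cko against 28.8, 35.6 and 37.6 FPKM in Aa-flox, without overlap (log2 0.21, adjusted p = 0.167; 0.40 and 0.0111 with the GC trend removed). Among the Aa-cko libraries, the short genes Dctpp1, Nme2, Aprt, Guk1, Prps1 and Dut were highest in Aa-cko 2, while Hprt1, which is also short, and Dtymk and Rrm2, the next in exon length, were highest in Aa-cko 3. With the trend with exon length removed, the log2 fold change was 0.35 for Nme2 (adjusted p = 0.0221), 0.47 for Aprt (0.00362), 0.31 for Guk1 (0.102), -0.28 for Dctpp1 (0.208) and -0.59 for Tyms (0.0259).

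Of the salvage members, the kinases Dck and Tk1 fell and Aprt rose. Of the mitochondrial deoxynucleoside kinases, from a list outside the set, Tk2 rose to 10.6, 12.5 and 10.4 FPKM in Aa-cko against 9.04, 6.86 and 6.52 FPKM in Aa-flox (log2 0.52 ± 0.15, adjusted p = 0.016), and Dguok did not pass (0.43, adjusted p = 0.0689); both were named after their values were seen. Dck, deoxycytidine kinase, which makes deoxynucleotides from deoxynucleosides, read 19.6, 20.3 and 27.4 FPKM in Aa-cko against 34.2, 39.8 and 51.9 FPKM in Aa-flox (log2 -0.87 ± 0.17, adjusted p = 0.00298). Replicate 3 was the highest of each group, and the groups did not overlap. Tk1, the cytosolic thymidine kinase of S phase, read 9.18, 12.6 and 9.13 FPKM in Aa-cko against 15.9, 12.1 and 17.1 FPKM in Aa-flox, so that Aa-cko 2 stood above Aa-flox 2 (log2 -0.50 ± 0.16, adjusted p = 0.0325). Its call was lost with upper quartile scaling (adjusted p = 0.0795), quantile normalization (0.0743), every gene tested (0.075) or the length trend removed (0.0648), and without Aa-cko 1, Aa-cko 3, Aa-flox 1 or Aa-flox 3 (0.119, 0.0629, 0.0985 and 0.11).

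Aprt, adenine phosphoribosyltransferase, which makes AMP from adenine, rose to 70.4, 89.4 and 62.9 FPKM in Aa-cko against 54.6, 45.7 and 44.6 FPKM in Aa-flox. All Aa-cko libraries were higher, with a log2 fold change of 0.60 ± 0.14 (adjusted p = 0.00706). Hprt1, the matching enzyme for hypoxanthine and guanine, read 66.5, 70.8 and 73.9 FPKM in Aa-cko against 76.8, 76.0 and 77.1 FPKM in Aa-flox; the groups did not overlap, and the difference was small and did not pass (log2 -0.12, 95% interval -0.323 to 0.0796; -0.28 with adjusted p = 0.0464 once the length trend was removed). Uck2, a uridine and cytidine kinase, read 81.3, 77.3 and 67.9 FPKM in Aa-cko against 63.9, 70.6 and 61.2 FPKM in Aa-flox and did not pass (log2 0.21, adjusted p = 0.142; 0.30 and 0.0443 with the length trend removed).

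The neighbouring steps of the pathway, given from lists outside the set, held 64 genes in the table, of which 45 were tested. Of these 15 (33.3%) were higher and 11 (24.4%) lower, where 19.2% and 23.2% of all tested genes were. The higher genes numbered 9 without Aa-cko 1, Aa-flox 2 or Aa-flox 3. Enzymes of the thymidylate cycle fell in 4 of 5 tested cases (80%). Mthfd2, a mitochondrial folate dehydrogenase, averaged 32.98 ± 2.61 FPKM in Aa-cko and 86.2 ± 3.55 FPKM in Aa-flox (SD, n = 3 each; log2 -1.36), and the serine hydroxymethyltransferases Shmt2 and Shmt1 had log2 fold changes of -1.29 and -0.76. Their median of -0.76 stood beside -0.60 for the 7 deoxynucleotide members and -0.05 for all genes. Enzymes of purine and pyrimidine breakdown had 5 higher (50%) and 1 lower (10%) of 10 tested, with a median of 0.45. All of those called act on purines. Of the pyrimidine enzymes in this list only Upp1, a uridine phosphorylase, was tested, and it did not pass (log2 0.27, adjusted p = 0.0898). The others did not meet the low-value filter. Ampd3, an AMP deaminase, averaged 12.6 ± 1.18 FPKM in Aa-cko and 5.22 ± 1.11 FPKM in Aa-flox (log2 1.14), Gda, guanine deaminase, rose by log2 0.94, and Xdh, which makes uric acid, rose by log2 0.75.

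The remaining lists were mixed. Among other kinases and enzymes of the IMP branch 3 rose and 3 fell of 11 tested (27.3% each). Ak4, an adenylate kinase of mitochondria, stood at log2 -1.13, Nme7 at -0.90 and Adss1, an adenylosuccinate synthase, at 0.69. Ak4 read 0.317 ± 0.254 FPKM in Aa-cko and 1.86 ± 0.139 FPKM in Aa-flox, so its fold change is set in part by the pseudocount of 1. Other salvage enzymes and nucleoside transporters had 4 higher (50%) and 2 lower (25%) of 8. Uckl1 stood at 0.54, Adk, adenosine kinase, at -0.46 and Slc29a1, the equilibrative nucleoside transporter ENT1, at -0.41. Nucleotidases and enzymes that clean the nucleotide pool had 3 higher (27.3%) and 1 lower (9.09%) of 11. Nt5c3b stood at -0.58, Nt5c at 0.49 and Nt5c3 at 0.38.

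**Figure D4:**
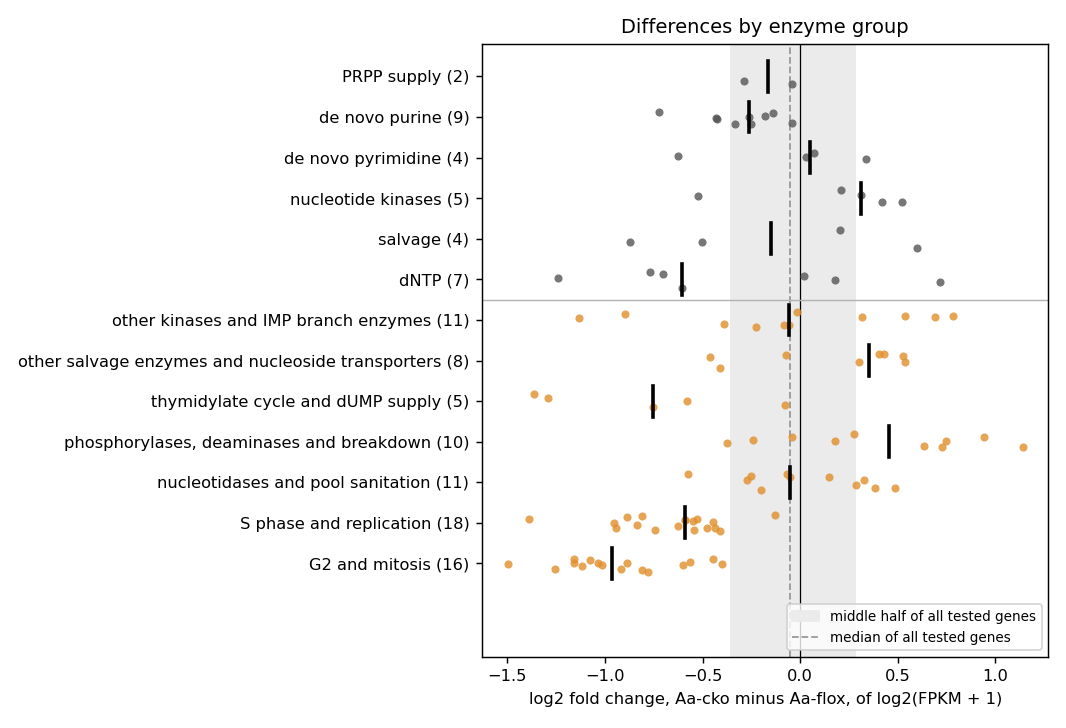
Log2 fold change, Aa-cko minus Aa-flox, of the tested genes of each enzyme group (members above the line, other lists below it; number of genes in brackets), with the group median as a bar. The deoxynucleotide, thymidylate, replication and mitosis groups have medians of -0.60, -0.76, -0.59 and -0.97, the breakdown enzymes 0.45, and all tested genes -0.05.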

How the data were processed

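The authors deposited 1 table of FPKM values for 21965 genes in 6 libraries, and the submitters' processing notes name mm10. Which aligner, quantifier and annotation were used, and whether strand was, is not given in the sources used here. Groups come from the titles and columns were matched by name. Positions and exon lengths come from GENCODE M21 on the same assembly, and promoters from RefSeq. Depth was estimated as the value at which low values are whole fragments; 42.7 to 46.4% of held-out values were whole within 0.1 fragment, against 20% by chance, so no count test was run and depths are approximate.

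Differences were tested with limma 3.58.1 (R 4.3.3) on log2(FPKM + 1) with a trended, robust variance prior. The fit covered 10849 genes at 1 FPKM or above in 3 or more libraries. P-values were adjusted over all of them by Benjamini and Hochberg, with calls under 0.05. Fold changes on this scale understate those of low genes. Ratios of related enzymes used no pseudocount and the exact permutation test (scipy 1.17.1). The members, roles and lists were chosen with earlier results of these data known. All members were named; of other lists, up to 3 called genes with the smallest p and some genes fixed by name, such as Myc and Mki67.
Alternatives changed the scaling, filter, pseudocount, variance model, threshold and block, or left out a library.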

Additional observations from a re-analysis of the deposited data

How the results depend on the processing

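Of the 13 members called lower with Ctps1 and 3 called higher, Rrm2, Rrm1, Dck, Ctps1, Ppat, Tyms, Umps, Dut, Dtymk, Paics, Aprt and Samhd1 kept direction and call in all 19 alternatives each (scaling, filter, pseudocount, variance model, threshold, replicate block, each library left out, and, chosen after seeing the data, trends with exon length or GC content removed). Impdh2, Gmps, Tk1 and Nme2 lost their call in 8, 2, 9 and 6 of them and kept their direction. At an adjusted p of 0.01, 1269 genes were higher and 1479 lower, and the counts were 7 for other pathway genes called higher, 2 for purine members called lower, 0 for kinases called higher and 1 for salvage members called lower. Members called higher numbered 5 under upper quartile scaling, under the replicate block and with the length trend removed. Pyrimidine members called higher numbered 1 under upper quartile scaling, with no variance trend and with the length trend removed. Kinases called higher numbered 2 under upper quartile scaling, under quantile normalization and with the GC trend removed, 3 under the replicate block, where Nme1 (adjusted p = 0.0304) and Guk1 (0.0115) joined Nme2, and 0 with no filter. With Ctps1 and Hprt1 counted, also chosen after seeing the data, 3 of 33 genes were higher and 13 lower. Salvage members called lower numbered 1 under upper quartile and quantile scaling, with no filter and with the length trend removed, where 2 were called higher. In the 100 bases around the start, 2 members (6.67%) held the E-box and 1 (3.33%) the E2F letters, against 5.41% and 2.66% of tested genes. The cause of these changes was not tested.

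With 1 library left out, genes called higher ranged from 1502 to 2109 and lower from 1793 to 2735. Members called higher ranged from 2 to 6, with 6 without Aa-cko 3, and lower from 10 to 13; other pathway genes called higher from 9 to 14; purine members called lower from 3 to 5; pyrimidine members called higher from 0 to 1 (without Aa-cko 3); kinases called higher from 0 (without Aa-cko 1 or any Aa-flox library) to 3 (without Aa-cko 3); salvage members called lower from 1 (without Aa-cko 1, Aa-cko 3, Aa-flox 1 or Aa-flox 3) to 2; and dNTP members called higher from 1 to 2 (without Aa-flox 3). Members near 0 changed sign, and none of the values given next passed the threshold except that of Rrm2b without Aa-flox 3. Under upper quartile scaling and quantile normalization Prps1 read 0.0625 and 0.05, and Atic 0.06 and 0.0639. With equal sums Cad read -0.0459, Ctps2 -0.0229 and Dctpp1 -0.0699, and without the 20 most abundant genes in the sums Cad -0.0122 and Dctpp1 -0.0314. With the GC trend removed Prps1 read 0.0709, Cad -0.031, Hprt1 0.0562 and Dctpp1 -0.0415, and with the length trend removed Atic read 0.11 and Dctpp1 -0.28. With 1 library left out the log2 fold change ranged from -0.0849 to 0.0045 for Prps1, -0.0445 to 0.159 for Cad, -0.11 to 0.61 for Rrm2b and -0.19 to 0.21 for Dctpp1. Whether equal replicate numbers mark paired libraries is not known, and the following values cannot decide it. The deviations of equal numbers correlated at -0.018, 0.188 and 0.522, the last being the highest of all pairs. Not every library correlated best with its own number. Aa-cko 2 correlated best with Aa-flox 1 (0.365), and deviations in both fell with exon length (Spearman -0.54 and -0.31). The replicate block raised the calls over all genes to 2451 higher and 3058 lower. The depth of the files limits Pfas, Dctpp1 and Rrm2b most, whose smallest values rest on about 160, 138 and 195 fragments.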
